A study of Mus musculus with 11 samples.

Results

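The endothelial cells (ECs) of the cerebral cortex of mice with experimental autoimmune encephalomyelitis (EAE) that carried 3 or more unique molecular identifiers (UMIs, 1 per captured transcript) of Lcn2 were compared with ECs of the same libraries that carried none. Both classes were chosen by measured values. A cell was kept if its gene number lay above 500 and below 6000 and its mitochondrial share of UMIs below 25%. It counted as an EC when it held 3 or more UMIs over Cldn5, Flt1 and Pecam1, at most 2 over Rgs5 and Vtn, at most 2 over C1qa, C1qb and Ptprc, and at most 1 over Icam1 and Vcam1. Of 50625 kept cells in 11 libraries, 16418 came from the 2 EAE libraries and 5386 of these were ECs. Lcn2 3+ cells numbered 561 (289 in EAE 1 and 272 in EAE 2), Lcn2 0 cells 3839 (1962 and 1877), and the other 986 had 1 or 2 Lcn2 UMIs.

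All mice were C57BL/6, and myelin-depleted cells of the cortex were captured with the 10x Chromium 3′ v2 assay. The EAE libraries came from females immunized at 7 to 11 weeks with MOG35–55, a myelin oligodendrocyte glycoprotein peptide, in Complete Freund's Adjuvant, given pertussis toxin and taken at the disease peak. The other libraries had no treatment and held adult (3 libraries, 7 to 11 weeks), aged (2 libraries, 18 months) or juvenile mice (4 libraries, postnatal day 10). Tissue of 3 mice was pooled for each EAE and aged library and of 6 for each adult and juvenile library, so no value belongs to a single animal. The adult mice received neither adjuvant nor toxin, so the autoimmune disease and these agents cannot be told apart.

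Lcn2 encodes lipocalin 2, a secreted protein that binds bacterial siderophores and so withholds iron from microbes. It is known as an acute-phase gene that interleukin 1, interleukin 6 and Toll-like receptor signals induce through NF-kB, C/EBP and STAT3 factors, and it is stored in large amounts in neutrophil granules. Brain ECs are joined by tight junctions and carry transporters that make up the blood-brain barrier, and their genes change gradually from arteries through capillaries to veins.

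Markers outside the gate fitted ECs in both classes. Cdh5, which encodes VE-cadherin, was at 430.1 and 419.9 CPM in Lcn2 3+ cells against 316 and 317 CPM in Lcn2 0 cells, each pair giving EAE 1 and then EAE 2, as CPM (the gene's UMIs scaled to a fixed total of UMIs in each sum, leaving out Lcn2). Ly6c1 was at 6885 and 6949.6 CPM in Lcn2 3+ cells against 10493 and 10238 CPM in Lcn2 0 cells, and Itm2a at 2345 and 2577 CPM in Lcn2 3+ cells against 3436 and 3400.3 CPM in Lcn2 0 cells. Slco1a4 was at 1333 and 1440 CPM in Lcn2 3+ cells against 1592 and 1553 CPM in Lcn2 0 cells. Emcn was at 262 and 281 against 406 and 487 CPM, Tek at 135 and 124 against 226 and 217 CPM. Tie1 was at 83.3 and 90.6 against 150 and 132 CPM. Of the markers checked, only Cdh5 was higher in Lcn2 3+ cells. Each lay far above its level in microglia of the same libraries, where Cdh5 was at 8.31 and 5.90 CPM and Tie1 at 3.92 and 2.44 CPM. The gate's own genes are described without a test. Cldn5 was at 7459.7 and 7348 CPM in Lcn2 3+ cells against 6244 and 6212 CPM in Lcn2 0 cells, Flt1 at 3603 and 3663 CPM in Lcn2 3+ cells against 2903 and 3156 CPM in Lcn2 0 cells and Pecam1 at 678 and 704 CPM in Lcn2 3+ cells against 656 and 669 CPM in Lcn2 0 cells. Icam1, although limited to 1 UMI with Vcam1, was at 21.1 and 18.5 CPM in Lcn2 3+ cells against 5.80 and 9.73 CPM in Lcn2 0 cells.

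Depth differed between the classes. The median was 3368 and 3395 UMIs in Lcn2 3+ cells and 2031.5 and 2058 in Lcn2 0 cells, so the same number of cells per class was drawn in each bin of 0.25 log2 UMIs. This left 287 cells of each class in EAE 1 and 272 in EAE 2, with medians of 3326 and 3395 against 3283 and 3400.0 UMIs and 1027554 to 1046847 UMIs per sum. Mitochondrial UMIs had medians of 0.834% and 0.842% in the drawn Lcn2 3+ cells and 0.889% and 0.854% in the drawn Lcn2 0 cells. The EC barcodes of EAE 1 and EAE 2 shared 10 sequences. Over the 11 libraries 15755504 to 34326349 UMIs were counted, and the ECs of Adult 1 stood apart from those of Adult 2 and Adult 3, with Jun, Junb, Hes1 and Dusp1 among the 5 genes that differed most from either. EAE 1 and EAE 2 differed by slightly more than the sampling noise of their cells (mean squared difference 1.37 times the variance from cells, where 1 is noise alone) and were kept as 2 libraries. Nothing in the labels states separate cultures or days, so the spread between these libraries may be technical. For the Lcn2 classes, p-values measure only how the class difference varied between EAE 1 and EAE 2, with the estimate of spread shared over genes. For EAE against adult they measure only the spread between libraries of a group.

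The share of ECs with 3 or more Lcn2 UMIs was 10.4% (95% CI 9.32 to 11.6) in EAE 1 and 10.4% (95% CI 9.25 to 11.6) in EAE 2, with exact Clopper-Pearson intervals that cover counting error only. In adult libraries it was 0 of 572 cells, for which a limit of 3 counts allows a share of up to 0.524%, then 1 of 1949 and 1 of 2047 cells. The aged libraries had 0.298% (95% CI 0.129 to 0.585) and 0.241% (95% CI 0.0886 to 0.524), and the juvenile libraries 0.267% to 0.512%. No interval outside EAE reached that of either EAE library. After each EC was thinned to 1500 UMIs, with 427 and 403 shallower EAE cells left out, the share was 6.36% and 6.33% in EAE, at most 0.183% in aged and at most 0.101% in juvenile libraries.

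Free RNA can give a Lcn2 UMI to cells that do not express it, so other cell types of the EAE libraries were counted at the same Lcn2 threshold. Microglia, T cells and neutrophils were gated by their own markers and had to hold at most 1 UMI over Cldn5, Flt1 and Pecam1. This limit leaves out cells with more endothelial RNA, so the shares describe these gates only. The part of free RNA in the Lcn2 of ECs was not tested. Microglia reached 3 or more Lcn2 UMIs in 0.241% (95% CI 0.0496 to 0.701) and 0.381% (95% CI 0.124 to 0.886) of cells at medians of 3191 and 3311 UMIs, which was deeper than the ECs at 2192 and 2219.5. T cells reached it in 2 of 289 and 0 of 287 cells. At least 1 Lcn2 UMI was present in 9.22% and 9.44% of microglia and in 29.2% and 28.2% of ECs. Neutrophils held 3 or more Lcn2 UMIs in 65.7% (95% CI 57.3 to 73.5) and 75.9% (95% CI 68.0 to 82.7).

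**Figure D1:**
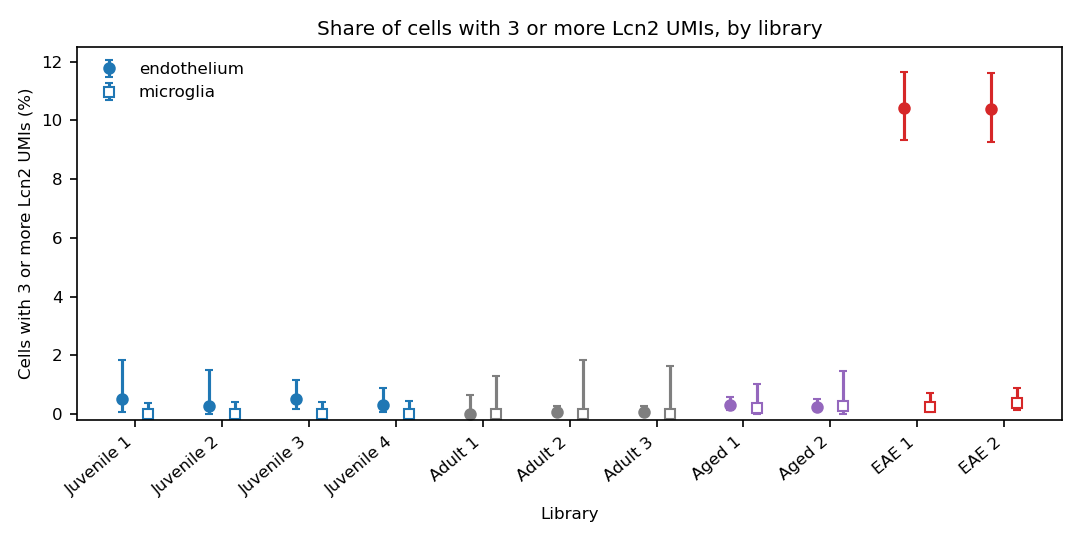
Percent of cells with 3 or more Lcn2 UMIs (y axis) in each library (x axis), with filled circles for ECs, open squares for microglia and bars for exact 95% Clopper-Pearson intervals. The ECs of EAE 1 and EAE 2 lie at 10.4%, and every other point lies below 1%.

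Lcn2 was unevenly spread among the members. Its count per cell ran from 3 to 183 in EAE 1 and to 117 in EAE 2, with medians of 5 and 6 and upper quartiles of 9 and 12. These cells, about 1 in 10 of the ECs in the gate, were chosen for high Lcn2 and held 82.4% and 83.2% of the gate's Lcn2 UMIs. ECs with 2 or more UMIs over Icam1 and Vcam1 lay outside the gate and were not counted in these shares. At the threshold, 86 and 71 cells had exactly 3 Lcn2 UMIs and 125 and 115 had 2, with median depths of 2660.5 and 2699 against 2593 and 2710.0 UMIs. Mt2 was at 3738 and 3637 CPM in the former and 1256 and 1278 CPM in the latter. Lrg1 did not step in this way, at 262 and 241 CPM against 444 and 231 CPM.

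At matched depth, 8.04% of the 8235 genes tested were higher in Lcn2 3+ cells (662 genes) and 6.06% were lower (499 genes), by edgeR's quasi-likelihood test on UMIs summed per library and class with the library as a block and a Benjamini-Hochberg adjusted p below 0.05. All 1161 called genes had the same direction in both libraries, which a call from 2 libraries with a block nearly requires. Of the called genes, 232 in each direction changed by 2-fold or more. The median log2 fold change over all tested genes was -0.01. Scaling to library totals without TMM factors moved that median by -0.11 and the calls to 432 higher and 536 lower genes, and DESeq2 called 176 and 54. CPM of tested genes are scaled with TMM factors and leave out Lcn2 and the gate's genes, so they lie slightly above or below CPM of plain totals. Each log2 fold change stands with its SE, and pairs of values give EAE 1 and then EAE 2. The filter on low counts asks for about 10 UMIs in 2 of the 4 sums, so 94 genes entered the test through Lcn2 3+ cells alone and 292 through Lcn2 0 cells alone, being below the limit in both sums of the other class. Such genes had to differ and are described only, although those called are counted in the 662 and 499 genes and their shares. Of the 7849 genes that entered through both classes, 628 were higher and 409 lower. Without cells holding a UMI of S100a8 or S100a9, genes of neutrophils, 6000 genes could be tested, and 427 were higher and 265 lower. The fit after thinning took all ECs with 1500 or more UMIs in place of the drawn cells, classed by their Lcn2 count before thinning. It held 276 and 263 Lcn2 3+ cells and 1594 and 1524 Lcn2 0 cells. It therefore differs from the main fit in its Lcn2 0 cells as well as in depth, and these parts were not tested apart.

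The 10 largest rises among called genes at 50 CPM or more were Darc, Tnfsf8, 1100001G20Rik, Apod, Bst1, Lrg1, Adamts9, Il1r1, Angpt2 and Serpina3n. Darc, Tnfsf8 and 1100001G20Rik entered the test through Lcn2 3+ cells alone, so their values are given without a test. The neutrophil genes Ngp (6.10), S100a9 (4.70), S100a8 (4.38) and Retnlg (3.46) had log2 fold changes above that of Apod and were not called, and their level in Lcn2 3+ cells differed between the libraries. Apod, which encodes apolipoprotein D, another member of the lipocalin family, was at 1512 and 1734 CPM in Lcn2 3+ cells against 157 and 139.6 CPM in Lcn2 0 cells. This was a log2 fold change of 3.45 ± 0.10 (SE, edgeR adjusted p = 3.36e-18), and Apod was found in 63.1% and 65.8% of Lcn2 3+ cells and 28.9% and 28.3% of Lcn2 0 cells. Tnfsf8, the ligand of CD30, was at 167 and 179 CPM in Lcn2 3+ cells against 7.70 and 6.78 CPM in Lcn2 0 cells. The angiopoietin gene Angpt2, whose product acts on the endothelial receptor Tie2, was at 373 and 300.1 CPM in Lcn2 3+ cells against 51.9 and 39.7 CPM in Lcn2 0 cells (2.87 ± 0.14, edgeR adjusted p = 1.68e-13). In Apod and Angpt2 the values of the classes lay far apart in both libraries. Bst1, an ADP-ribosyl cyclase gene, was at 85.9 and 128 CPM in Lcn2 3+ cells against 11.5 and 9.69 CPM in Lcn2 0 cells (3.31 ± 0.24, edgeR adjusted p = 1.94e-10). The metalloprotease gene Adamts9 was at 153 and 126 CPM in Lcn2 3+ cells against 14.4 and 21.3 CPM in Lcn2 0 cells (2.95 ± 0.21, edgeR adjusted p = 1.38e-10). 1100001G20Rik differed most between the libraries, at 152 and 30.9 CPM in Lcn2 3+ cells against 4.81 and 5.81 CPM in Lcn2 0 cells, and was found in 4.53% and 3.31% of Lcn2 3+ cells. In the adult libraries it was at 12877 CPM of plain totals in the 2 Lcn2 3+ cells, against 0.310 CPM in Lcn2 0 cells. Both of those adult cells held 20 or more UMIs of the neutrophil genes S100a8 and S100a9. The part of neutrophil RNA in its rise was not tested.

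The 10 largest falls under the same limits were Gzma, Gkn3, Alpl, Stmn2, Tmem100, Trbc2, Islr2, Sema3g, Lgals1 and S100a4. Alpl, Tmem100 and Islr2 entered the test through Lcn2 0 cells alone and are likewise given without a test. Gkn3 was at 5.17 and 16.5 CPM in Lcn2 3+ cells against 159 and 163 CPM in Lcn2 0 cells, a log2 fold change of -3.88 ± 0.24 (edgeR adjusted p = 2.16e-11). Stmn2 was at 5.17 and 22.7 CPM in Lcn2 3+ cells against 111 and 164 CPM in Lcn2 0 cells (-3.30 ± 0.24, edgeR adjusted p = 2.95e-10). Gkn3 and Stmn2 were lower in every Lcn2 3+ sum than in every Lcn2 0 sum. Tmem100 was at 6.21 and 8.25 CPM in Lcn2 3+ cells against 67.3 and 46.5 CPM in Lcn2 0 cells. Islr2 was at 8.28 and 8.25 CPM in Lcn2 3+ cells against 56.8 and 57.2 CPM in Lcn2 0 cells. Lgals1, a galectin gene, was at 59.0 and 21.7 CPM in Lcn2 3+ cells against 222 and 129.9 CPM in Lcn2 0 cells (-2.14 ± 0.17, edgeR adjusted p = 7.44e-10). S100a4, a calcium-binding protein gene, was at 19.7 and 21.7 CPM in Lcn2 3+ cells against 93.3 and 88.2 CPM in Lcn2 0 cells (-2.13 ± 0.21, edgeR adjusted p = 3.6e-08). The leukocyte genes Gzma, for granzyme A, and Trbc2, for the T cell receptor beta chain, were at 11.4 and 5.16 against 169 and 80.4 CPM and 14.5 and 6.19 against 57.7 and 86.3 CPM; they fell by 3.90 and 2.78 on the log2 scale, and neither was called after thinning to 1500 UMIs. Nor was S100a4, at -0.71, and without the library block Gzma and Lgals1 were not called. Lgals1 was at -0.72 after thinning and at -1.23 in a gate of 6 or more UMIs over Cldn5, Flt1 and Pecam1, called in both.

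**Figure D2:**
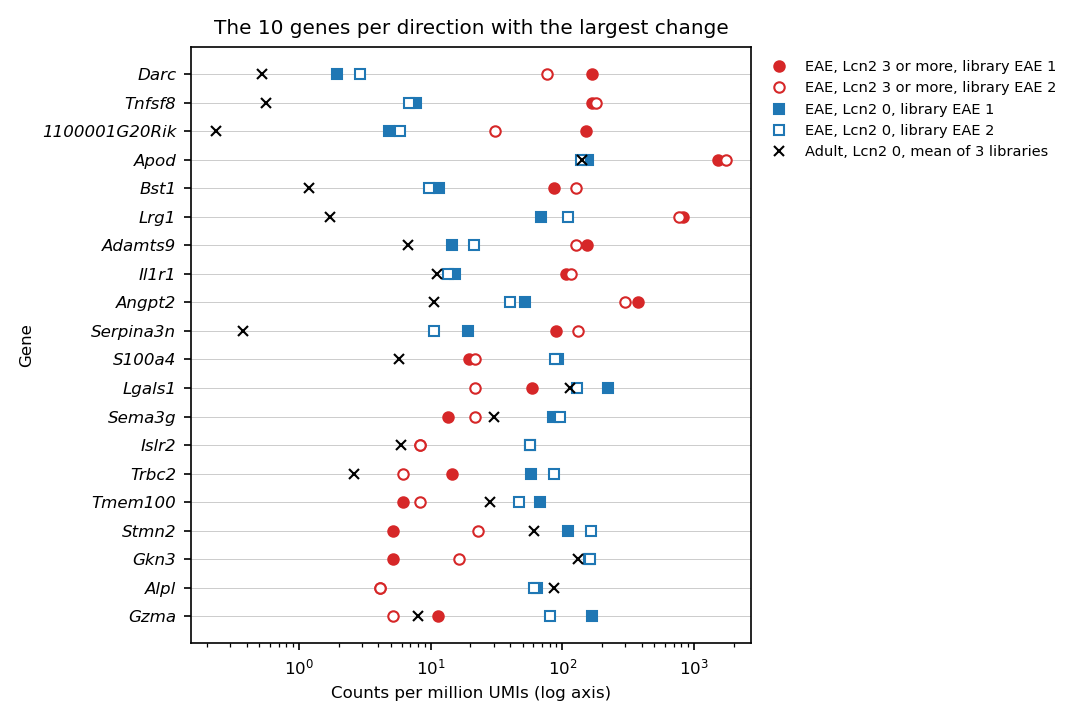
CPM on a log axis (x) of the 10 called genes per direction with the largest change at 50 CPM or more (y), in Lcn2 3+ cells (circles) and Lcn2 0 cells (squares) of EAE 1 (filled) and EAE 2 (open), with crosses for the mean of the Lcn2 0 cells of the 3 adult libraries. The circles lie to the right of the squares for the upper 10 genes and to the left for the lower 10, without overlap between the classes. The genes were chosen by a call and the same direction in both libraries, so this separation largely follows from the choice. Darc, Tnfsf8 and 1100001G20Rik entered the test through Lcn2 3+ cells alone, and Alpl, Tmem100 and Islr2 through Lcn2 0 cells alone.

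Most genes tested of the acute phase and of NF-kB and STAT3 responses rose. Of 24 genes listed for the acute phase and for NF-kB and STAT3 responses, 19 were tested, 14 rose and 0 fell. Their median log2 fold change was 0.63, where 8.04% of all genes rose. Lrg1, which encodes a secreted leucine-rich glycoprotein of the acute phase, was at 826 and 775 CPM in Lcn2 3+ cells against 69.3 and 110.5 CPM in Lcn2 0 cells (3.16 ± 0.14, edgeR adjusted p = 2.38e-10). It was found in 45.6% and 47.1% of Lcn2 3+ cells and 12.2% and 12.9% of Lcn2 0 cells. Ch25h, which makes 25-hydroxycholesterol, was at 460.4 and 430.0 CPM in Lcn2 3+ cells against 78.9 and 108 CPM in Lcn2 0 cells (2.26 ± 0.13, edgeR adjusted p = 2.9e-12). Il1r1, the signaling receptor for interleukin 1, was at 107 and 117 CPM in Lcn2 3+ cells against 15.4 and 13.6 CPM in Lcn2 0 cells (2.93 ± 0.22, edgeR adjusted p = 2.38e-10). The transcription factor gene Cebpd was at 981 and 1002 CPM in Lcn2 3+ cells against 432 and 560.2 CPM in Lcn2 0 cells (1.01 ± 0.09, edgeR adjusted p = 4.77e-09). The protease inhibitor gene Serpina3n was at 89.0 and 131 CPM in Lcn2 3+ cells against 19.2 and 10.7 CPM in Lcn2 0 cells (2.86 ± 0.25, edgeR adjusted p = 9.52e-09). DESeq2 called 7 of 22 members higher, where 176 of all 16774 genes were. Without cells with a UMI of S100a8 or S100a9, 9 were higher and 1 lower of 18 tested, where 427 and 265 of all 6000 genes were. Without cells with 2 or more UMIs over the list of arterial genes 9 of 19 were higher, where 554 of all 6962 genes were.

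Lcn2 chose the cells, and Lrg1, Ch25h and Il1r1, the genes of lowest p in the acute phase, NF-kB and STAT3 list, rose in them. The promoters of Lcn2 and these 3 genes are shown. They are the 250 bases before each RefSeq start site (GRCm38.p6) at chr2:32387740-32387989 (minus strand) for Lcn2, chr17:56121947-56122196 (minus) for Lrg1, chr19:34475149-34475398 (minus) for Ch25h, and chr1:40224830-40225079 and chr1:40266336-40266585 (plus) for the 2 start sites of Il1r1. Each is written 5′ to 3′ with capitals for matches, on either strand, to GGGNNTTNC (NF-kB), TTNNGNAA (C/EBP) or TTCNNNGAA (STAT).
Lcn2: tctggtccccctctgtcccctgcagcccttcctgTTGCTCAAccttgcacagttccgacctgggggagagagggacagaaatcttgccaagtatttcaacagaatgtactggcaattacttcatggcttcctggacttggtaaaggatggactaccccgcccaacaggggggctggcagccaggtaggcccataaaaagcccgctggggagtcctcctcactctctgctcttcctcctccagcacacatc
Lrg1: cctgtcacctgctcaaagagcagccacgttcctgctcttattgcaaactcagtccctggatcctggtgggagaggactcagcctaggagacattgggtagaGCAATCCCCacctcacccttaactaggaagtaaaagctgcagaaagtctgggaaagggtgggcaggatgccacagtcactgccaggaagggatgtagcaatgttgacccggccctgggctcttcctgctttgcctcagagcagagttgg
Ch25h: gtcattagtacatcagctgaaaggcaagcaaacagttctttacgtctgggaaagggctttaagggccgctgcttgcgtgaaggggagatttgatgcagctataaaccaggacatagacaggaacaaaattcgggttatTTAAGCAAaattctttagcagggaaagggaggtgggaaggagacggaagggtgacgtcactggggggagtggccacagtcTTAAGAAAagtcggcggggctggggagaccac
Il1r1, upstream start site: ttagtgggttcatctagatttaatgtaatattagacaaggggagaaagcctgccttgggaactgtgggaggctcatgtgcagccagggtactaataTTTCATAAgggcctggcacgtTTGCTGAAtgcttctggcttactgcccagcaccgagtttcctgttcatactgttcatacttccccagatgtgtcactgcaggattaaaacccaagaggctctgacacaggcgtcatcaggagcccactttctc
Il1r1, downstream start site: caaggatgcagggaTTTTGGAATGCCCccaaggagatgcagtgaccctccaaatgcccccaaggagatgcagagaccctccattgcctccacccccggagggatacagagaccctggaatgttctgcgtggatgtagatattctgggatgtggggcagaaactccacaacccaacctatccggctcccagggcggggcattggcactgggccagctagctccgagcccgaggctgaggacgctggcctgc

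Lcn2 held 1 C/EBP match, 216 to 209 bases before the start, and Ch25h held 2. Lrg1 held 1 NF-kB match, 149 to 141 bases before the start. Each Il1r1 start site had 2 matches, both C/EBP at the upstream site, and a C/EBP match that overlaps an NF-kB match at the downstream site. No STAT match was found in these 5 windows. Over 32851 RefSeq promoters, 13.0% held an NF-kB match, 36.8% a C/EBP match and 7.02% a STAT match in the same window. Counted per gene, with a match in any of its windows, 7, 7 and 1 of 16 tested genes of the acute phase, NF-kB and STAT3 list held these matches. Of all 27025 genes 14.7%, 40.3% and 8.13% did. The 16 are the tested members with a promoter sequence, whether or not they rose. The list was made for NF-kB and STAT3 responses, so these shares describe the list only.

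Metallothioneins, small proteins that bind zinc and copper, rose in 2 of 3 members and fell in 1, where 8.04% and 6.06% of all genes did. Mt2 was at 2939 and 3049 CPM in Lcn2 3+ cells against 459 and 530.1 CPM in Lcn2 0 cells (2.60 ± 0.07, edgeR adjusted p = 3.36e-18). Mt1 was at 3944 and 3989 CPM in Lcn2 3+ cells against 987 and 1122 CPM in Lcn2 0 cells (1.91 ± 0.07, edgeR adjusted p = 3.86e-16). Mt2 was detected in 74.9% and 79.8% of Lcn2 3+ cells and 43.2% and 50% of Lcn2 0 cells at matched depth. Mt3, the neural member of the list, was at 31.0 and 14.4 CPM in Lcn2 3+ cells against 67.3 and 90.1 CPM in Lcn2 0 cells (-1.79 ± 0.27, edgeR adjusted p = 0.000169), and was not called after thinning. Mt1 and Mt2 are related genes, and a split of reads between them was not tested. Among 7 tested genes of iron handling and lipocalin receptors, 1 rose and 1 fell (median 0.05), where 8.04% and 6.06% of all genes did. Fth1, the ferritin heavy chain, was at 10319 and 9941 CPM in Lcn2 3+ cells against 6678 and 6436 CPM in Lcn2 0 cells (0.63 ± 0.06, edgeR adjusted p = 1e-08). Slc22a17, described as a receptor for lipocalin 2, was at 41.4 and 14.4 CPM in Lcn2 3+ cells against 59.6 and 46.5 CPM in Lcn2 0 cells (-0.93 ± 0.25, edgeR adjusted p = 0.0113). Slc22a17 was at -0.13 after thinning and at -0.24 without cells with S100a8 or S100a9, and was called in neither, nor after a second draw of cells or without matching.

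Genes through which ECs meet leukocytes moved in both directions. Of 12 adhesion genes listed other than Icam1 and Vcam1, 9 were tested, and Darc and Sele among them entered through Lcn2 3+ cells alone. Of the other 7, 3 rose and 1 fell (median -0.07), against 8.04% and 6.06% of all genes. Darc, now named Ackr1, the atypical chemokine receptor of venular ECs, was at 167 and 76.3 CPM in Lcn2 3+ cells against 1.92 and 2.91 CPM in Lcn2 0 cells. It was found in only 8.36% and 9.19% of Lcn2 3+ cells. Sele, the gene of E-selectin, was at 11.4 and 11.3 CPM in Lcn2 3+ cells against 0 and 0.969 CPM in Lcn2 0 cells. It was found in 1.39% and 1.47% of Lcn2 3+ cells. Esam, an adhesion molecule of endothelial junctions, was at 1722 and 1668 CPM in Lcn2 3+ cells against 1187 and 1204 CPM in Lcn2 0 cells (0.50 ± 0.07, edgeR adjusted p = 8.09e-06). Cd9, a tetraspanin, was at 461 and 340.3 CPM in Lcn2 3+ cells against 266 and 288 CPM in Lcn2 0 cells (0.52 ± 0.12, edgeR adjusted p = 0.00264). Podxl, a sialomucin of the luminal surface, was at 335 and 300.1 CPM in Lcn2 3+ cells against 386 and 393 CPM in Lcn2 0 cells (-0.30 ± 0.10, edgeR adjusted p = 0.0489), and was not called with RLE size factors.

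Of 8 tested chemokine genes, 4 rose and 1 fell (median 0.80), against 8.04% and 6.06% of all genes. The neutrophil attractant gene Cxcl1 was at 107 and 149.5 CPM in Lcn2 3+ cells against 22.1 and 29.1 CPM in Lcn2 0 cells (2.32 ± 0.19, edgeR adjusted p = 1.12e-09). Cxcl2, of the same kind, was at 51.7 and 75.3 against 9.62 and 15.5 CPM (2.33 ± 0.26, edgeR adjusted p = 4.24e-07). Cx3cl1, a membrane-bound chemokine, was at 59.0 and 80.4 against 32.7 and 44.6 CPM (0.85 ± 0.19, edgeR adjusted p = 0.00239). The scavenging receptor Ackr3 was at 160.4 and 138 against 92.3 and 84.3 CPM (0.76 ± 0.14, edgeR adjusted p = 0.000268). Cxcl12, the ligand of Cxcr4 and Ackr3, went the other way at 765 and 679 CPM in Lcn2 3+ cells against 1267 and 1491 CPM in Lcn2 0 cells (-0.93 ± 0.09, edgeR adjusted p = 3.27e-08). Of 9 tested genes of coagulation and fibrinolysis, 5 rose and 1 fell (median 0.63), again beside 8.04% and 6.06%. The urokinase receptor gene Plaur was at 667 and 568 CPM in Lcn2 3+ cells against 172 and 156 CPM in Lcn2 0 cells (1.91 ± 0.10, edgeR adjusted p = 8.82e-13). Von Willebrand factor, Vwf, was at 867 and 911 CPM in Lcn2 3+ cells against 324 and 316 CPM in Lcn2 0 cells (1.47 ± 0.09, edgeR adjusted p = 4.81e-12). Tissue plasminogen activator, Plat, was at 1260.1 and 1055 CPM in Lcn2 3+ cells against 663 and 598 CPM in Lcn2 0 cells (0.87 ± 0.08, edgeR adjusted p = 6.31e-09). Vwf was detected in 76.0% and 81.2% of Lcn2 3+ cells and 50.9% and 55.1% of Lcn2 0 cells. Anxa2 and S100a10, whose products form a plasminogen-binding complex, were called in opposite directions. Anxa2 was at 589.7 and 519.7 against 356 and 359.5 CPM (0.63 ± 0.09, edgeR adjusted p = 2.1e-05). S100a10 was at 79.7 and 78.4 against 183 and 137 CPM (-1.01 ± 0.14, edgeR adjusted p = 1.38e-05), but S100a10 was at -0.48 and not called after thinning.

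Genes that mark the position of an EC along the vessel differed between the classes. Of 12 arterial genes listed, 11 were tested, and 4 of these (Alpl, Fbln5, Gja4 and Vegfc) entered through Lcn2 0 cells alone. The other 7 were called lower in Lcn2 3+ cells (median log2 fold change -1.80), where 6.06% of all genes fell. Besides Gkn3 and Stmn2, Alpl, the gene of tissue alkaline phosphatase, was at 4.14 and 4.12 CPM in Lcn2 3+ cells against 64.4 and 61.1 CPM in Lcn2 0 cells, and is given without a test. The semaphorin gene Sema3g was at 13.4 and 21.7 CPM in Lcn2 3+ cells against 84.7 and 95.9 CPM in Lcn2 0 cells (-2.36 ± 0.22, edgeR adjusted p = 1.58e-08). Alpl was seen in 1.39% and 1.47% of Lcn2 3+ cells and 16.7% and 15.8% of Lcn2 0 cells. Of 10 tested venous and capillary-venous genes, Darc entered through Lcn2 3+ cells alone, and of the other 9, 6 rose and 1 fell (median 1.04), where 8.04% and 6.06% of all genes did. Car4, a capillary carbonic anhydrase, was at 237 and 276 against 337 and 377 CPM (-0.48 ± 0.10, edgeR adjusted p = 0.00172).

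Cells with 2 or more UMIs over the arterial list were then left out of both classes. Such cells made up 28.9% (95% CI 23.7 to 34.5) and 29.4% (24.1 to 35.2) of Lcn2 3+ cells and 39.7% (34.0 to 45.6) and 45.6% (39.6 to 51.7) of Lcn2 0 cells. In Lcn2 3+ cells Mgp, the gene of matrix Gla protein, held most UMIs of that list. Mgp was at 448 and 557 CPM in Lcn2 3+ cells against 576 and 987 CPM in Lcn2 0 cells, where the whole list summed to 513 and 681 CPM in Lcn2 3+ cells and 1229.9 and 1741 CPM in Lcn2 0 cells. With 6962 genes tested, 554 were then higher and 351 lower. Lrg1 had a log2 fold change of 2.84, Apod of 2.86, Mt2 of 2.86 and Vwf of 1.18, all called, while 4 of 10 venous genes were higher and Slc38a5 was not called.

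Transporters of the blood-brain barrier did not move one way. Of 21 tested, 4 rose and 6 fell (median -0.04), where 8.04% and 6.06% of all genes did. Slc2a1, the glucose transporter GLUT1, was at 6365 and 6624 CPM in Lcn2 3+ cells against 3860.3 and 3846 CPM in Lcn2 0 cells (0.75 ± 0.06, edgeR adjusted p = 1.09e-09). The glutamate transporter gene Slc1a1 was at 432 and 391 against 209.7 and 210.3 CPM (0.97 ± 0.10, edgeR adjusted p = 1.86e-07). The glutamine transporter gene Slc38a5 was at 158 and 193 against 92.3 and 77.5 CPM (1.04 ± 0.15, edgeR adjusted p = 9.93e-06). The organic anion transporter gene Slco2b1 was at 181 and 211 against 142 and 152 CPM (0.41 ± 0.12, edgeR adjusted p = 0.0246). Among those that fell, the taurine transporter gene Slc6a6 was at 317 and 356 CPM in Lcn2 3+ cells against 822 and 875 CPM in Lcn2 0 cells (-1.34 ± 0.09, edgeR adjusted p = 2.18e-11) and was detected in 39.0% and 47.8% against 76.3% and 78.3% of cells. The thyroid hormone transporter gene Slco1c1 was at 352 and 371 against 699 and 727 CPM (-0.98 ± 0.09, edgeR adjusted p = 7.47e-09). The lipid transporter gene Mfsd2a was at 174 and 172 against 271 and 284 CPM (-0.68 ± 0.11, edgeR adjusted p = 0.000101). The organic anion transporter gene Slc22a8 was at 136 and 145 against 225 and 226 CPM (-0.68 ± 0.12, edgeR adjusted p = 0.000239). The rise of Slco2b1 was not called after a second draw of cells, at 0.18 after thinning or at 0.087 without cells with arterial UMIs, and Slc38a5 was at 0.14 and not called without cells with arterial UMIs.

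Of 12 tested junction genes, 3 rose and 0 fell (median 0.27), where 8.04% and 6.06% of all genes did, with Cldn5 and Pecam1 left to the gate. They were Esam, Cdh5 and Jam2. Cdh5 was at 465 and 444 CPM in Lcn2 3+ cells against 315 and 316 CPM in Lcn2 0 cells (0.53 ± 0.10, edgeR adjusted p = 0.000279). Jam2 was at 406 and 369 against 312 and 311 CPM (0.31 ± 0.10, edgeR adjusted p = 0.0339). It was not called after a second draw or after thinning, where it was at 0.12. Of 8 tested genes of caveolae and vesicle transport, 0 rose and 4 fell (median -0.38), against the same shares of all genes. Cav1, the main caveolar coat protein, was at 96.2 and 93.8 CPM in Lcn2 3+ cells against 191 and 199 CPM in Lcn2 0 cells (-1.04 ± 0.13, edgeR adjusted p = 2.73e-06). Cav2 was at 148 and 168 against 254 and 285 CPM (-0.77 ± 0.12, edgeR adjusted p = 2.79e-05). Sdpr, now Cavin2, was at 552 and 613 against 702 and 715 CPM (-0.28 ± 0.08, edgeR adjusted p = 0.0202); the fourth was Mfsd2a. Of 17 tested genes of Wnt/beta-catenin signaling, 2 rose and 5 fell (median -0.14), where 8.04% and 6.06% of all genes did. Fzd4, the receptor for norrin, was at 64.1 and 71.2 against 37.5 and 26.2 CPM (1.08 ± 0.21, edgeR adjusted p = 0.000563). The beta-catenin partner Lef1 was at 381 and 345 against 297 and 273 CPM (0.35 ± 0.10, edgeR adjusted p = 0.0192). Sox17, a transcription factor of arterial ECs, was at 296 and 271 CPM in Lcn2 3+ cells against 489.6 and 455 CPM in Lcn2 0 cells (-0.74 ± 0.10, edgeR adjusted p = 4.05e-06). Notum, which inactivates Wnt proteins, was at 19.7 and 23.7 against 62.5 and 65.9 CPM (-1.56 ± 0.23, edgeR adjusted p = 1.67e-05). Fzd6 was at 62.1 and 48.5 against 92.3 and 87.2 CPM (-0.70 ± 0.17, edgeR adjusted p = 0.00531). Tcf7 was at 33.1 and 23.7 against 47.1 and 59.1 CPM (-0.90 ± 0.24, edgeR adjusted p = 0.0099). The rises of Fzd4 and Lef1 did not hold, with Fzd4 at 0.55 and Lef1 at 0.22 after thinning and at 0.38 and 0.22 without cells with arterial UMIs, none of them called. Fzd6, Tcf7 and Sdpr were not called without cells with arterial UMIs, at -0.33, -0.75 and -0.30. Nor were they without cells with S100a8 or S100a9, at -0.17, -0.23 and -0.25, or without doublets.

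Of 16 tested genes of the extracellular matrix and its remodelling, 10 rose and 1 fell (median 0.71), against 8.04% and 6.06% of all genes. Beside Angpt2, Cyr61, a matricellular protein gene, was at 1230.1 and 1365 CPM in Lcn2 3+ cells against 513 and 627 CPM in Lcn2 0 cells (1.19 ± 0.08, edgeR adjusted p = 2.44e-11). Sparc was at 1912 and 1649 against 872 and 904 CPM (1.0 ± 0.08, edgeR adjusted p = 4.53e-10). The metalloprotease gene Adamts1 was at 600.1 and 519.7 against 201 and 249 CPM (1.32 ± 0.11, edgeR adjusted p = 8.4e-09). Timp3, an inhibitor of metalloproteases, was at 120.0 and 119 against 219 and 199 CPM (-0.81 ± 0.13, edgeR adjusted p = 4.67e-05). Immediate early genes, which tissue dissociation can also induce, had 10 of 18 tested members higher and none lower, with a median of 0.33 and 8.04% of all genes higher. Ier3 was at 2709.6 and 2826 CPM in Lcn2 3+ cells against 1506 and 1818 CPM in Lcn2 0 cells (0.74 ± 0.07, edgeR adjusted p = 1.48e-08). The heat shock gene Hspa1b was at 396 and 567 against 258 and 349 CPM (0.66 ± 0.10, edgeR adjusted p = 1.6e-05). The phosphatase gene Dusp1 was at 1410.2 and 1425 against 939.8 and 1096 CPM (0.48 ± 0.07, edgeR adjusted p = 3.75e-05). Atf3 was at 311 and 325 against 193 and 221 CPM (0.62 ± 0.11, edgeR adjusted p = 0.000175). Dusp1 was not called without cells with arterial UMIs, nor Hspa1b without the library block. Under library totals 7 were higher and 1 lower, where 432 and 536 of all 8235 genes were. The part of immediate early genes in the other differences was not tested.

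Genes of antigen presentation and the interferon response were mixed. Of 15 tested genes of MHC class I and peptide loading, 3 rose and 0 fell (median 0.11), where 8.04% and 6.06% of all genes did, and 0 were called under library totals. H2-K1 was at 2191 and 2119 CPM in Lcn2 3+ cells against 1676 and 1775 CPM in Lcn2 0 cells (0.32 ± 0.07, edgeR adjusted p = 0.00137). H2-D1 was at 4670.1 and 4461 against 3958 and 3941 CPM (0.21 ± 0.06, edgeR adjusted p = 0.0211). H2-Q4 was at 332 and 240.3 against 221 and 213 CPM (0.39 ± 0.12, edgeR adjusted p = 0.0252); reads of class I genes can be split between near-identical copies. Of 19 tested interferon response genes, 6 rose and 2 fell (median 0.03), beside the same shares. Ifitm3 was at 4309 and 3883 against 3139 and 2995 CPM (0.42 ± 0.06, edgeR adjusted p = 2.68e-05). The transcription factor gene Irf8 was at 61.0 and 52.6 against 26.0 and 18.4 CPM (1.35 ± 0.24, edgeR adjusted p = 0.000175). The guanylate-binding protein gene Gbp2 was at 390.0 and 345 against 289.5 and 229.7 CPM (0.51 ± 0.10, edgeR adjusted p = 0.000987). The antiviral genes Rsad2 and Ifit1 were at 94.1 and 81.5 against 120.2 and 150.2 CPM (-0.62 ± 0.15, edgeR adjusted p = 0.00454) and 169.7 and 192 against 223 and 236 CPM (-0.35 ± 0.12, edgeR adjusted p = 0.0487), and neither was called after a second draw or by DESeq2. After thinning Rsad2 was at -0.32 and Ifit1 at -0.30, and neither was called. Irf8 was at 0.57 without cells with arterial UMIs and was then not called.

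All 5 tested class II genes fell (median -1.46), where 6.06% of all genes did, but 0 were called without the library block and 2 without cells with a UMI of S100a8 or S100a9. Of all genes, 436 of 8235 and 265 of 6000 were lower in these fits. Cd74, the invariant chain, was at 603 and 366 CPM in Lcn2 3+ cells against 1496 and 983 CPM in Lcn2 0 cells (-1.36 ± 0.08, edgeR adjusted p = 4.19e-12). H2-Aa was at 246 and 142 against 821 and 329.5 CPM (-1.51 ± 0.12, edgeR adjusted p = 7.29e-10). H2-Ab1 was at 283 and 151 against 548 and 305 CPM (-0.98 ± 0.10, edgeR adjusted p = 1.39e-07). H2-Eb1 was at 137 and 135 against 531 and 295 CPM (-1.57 ± 0.17, edgeR adjusted p = 6.28e-05). The share of cells with a Cd74 UMI was 59.2% and 61.0% in Lcn2 3+ and 56.8% and 60.3% in Lcn2 0 cells. Leukocyte markers moved with these genes. Of 6 tested lymphocyte markers, Cd3e and Igkc entered through Lcn2 0 cells alone, and of the other 4, 3 fell (median -1.69), where 6.06% of all genes did. The 10 listed summed, in CPM of plain totals as for all list sums, to 116 and 45.8 CPM in Lcn2 3+ cells and 329.7 and 272 CPM in Lcn2 0 cells. Cd79a and Ms4a1, markers of B cells, were at 0 in the Lcn2 3+ cells and at or near 0 in the Lcn2 0 cells, at 0.967 and 0 and at 3.87 and 0 CPM of plain totals. Cd3e was at 8.28 and 9.28 against 28.9 and 16.5 CPM, Nkg7 at 37.2 and 18.6 against 75.03 and 61.1 CPM and Igkc at 2.07 and 3.09 against 51.9 and 10.7 CPM. Of 10 tested macrophage and monocyte markers, Ccr2 entered through Lcn2 0 cells alone, and of the other 9, 3 fell (median -0.33), where 6.06% of all genes did. The 12 listed summed to 2898 and 2535 CPM in Lcn2 3+ cells and 4548 and 3529 CPM in Lcn2 0 cells; Ccr2 was at 5.17 and 3.09 against 36.6 and 16.5 CPM, Apoe at 1695 and 1794 against 2609.7 and 2488 CPM, Lyz2 at 614 and 251 against 948 and 295 CPM and Ctss at 298 and 265 against 361 and 344 CPM. Lyz2 was at 0.18 and Nkg7 at 0.11 after thinning, and Nkg7 at 0.041 and Ctss at 0.012 in the gate of 6 or more UMIs, so these directions turned, and Lyz2 also turned without matching and with Cldn5 and Flt1 each required. In that gate 2 of 5 class II genes were called, where 512 of all 8061 genes were lower. The log2 fold change of Cd74 there was -0.25 in place of -1.36. After thinning it was -0.34, and H2-Ab1 was at -0.14 and not called. The part of leukocyte RNA in the class II difference was not tested.

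Neutrophils, which hold much Lcn2, were assessed by their own markers. None of 6 tested neutrophil markers was called (median log2 fold change 3.92). The libraries differed, and the 14 listed summed to 10027 and 1329.7 CPM in Lcn2 3+ cells and 431 and 339 CPM in Lcn2 0 cells. S100a8 was at 3339 and 604 CPM in Lcn2 3+ cells against 74.1 and 82.4 CPM in Lcn2 0 cells (4.38 ± 1.13, edgeR adjusted p = 0.36). S100a9 was at 3128 and 483 against 64.4 and 54.3 CPM (4.70 ± 1.004, edgeR adjusted p = 0.317). Ngp was at 1480.5 and 19.6 against 12.51 and 7.75 CPM (6.10 ± 1.37, edgeR adjusted p = 0.326). At 20 or more UMIs of S100a8 and S100a9 together stood 8 of 287 and 5 of 272 Lcn2 3+ cells and 0 of the Lcn2 0 cells. Any UMI of the pair was common in both classes, in 43.2% and 48.5% of Lcn2 3+ and 38.3% and 39.7% of Lcn2 0 cells, and Ly6g had no UMI in any. Among cells with none of these UMIs the log2 fold changes were 3.47 for Lrg1, 3.07 for Apod, 2.94 for Mt2, 2.13 for Ch25h, 2.55 for Il1r1 and 3.58 for Serpina3n, all called. With all drawn cells the values were 3.16, 3.45, 2.60, 2.26, 2.93 and 2.86, and the difference between the fits was not tested. 1100001G20Rik was too low to be tested there. Scrublet called 2.44% and 1.103% of the Lcn2 3+ cells doublets and 2.44% and 1.47% of the Lcn2 0 cells.

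Markers of other cell types were given by list. Of 4 tested red blood cell genes 3 fell, where 6.06% of all genes did, and the 5 listed summed to 1812 and 2394 CPM in Lcn2 3+ cells and 5407 and 5146 CPM in Lcn2 0 cells. Hba-a1 was at 545 and 551 against 1462 and 1472 CPM, Hba-a2 at 385 and 352 against 1079 and 893 CPM and Hbb-bs at 997 and 1263 against 2463 and 2593 CPM, all near-identical copies within their family, and the direction of these globins reversed after thinning. The 8 mural markers other than Rgs5 and Vtn summed to 17.2 and 12.7 CPM in Lcn2 3+ cells and 93.8 and 118 CPM in Lcn2 0 cells, with 2 tested through Lcn2 0 cells alone, Acta2 at 3.10 and 5.16 against 28.9 and 70.7 CPM and Tagln at 3.10 and 4.12 against 44.2 and 25.2 CPM. After thinning Acta2 was at -1.41 and Tagln at -1.18. The 6 choroid plexus and ependymal markers summed to 11703 and 6299 CPM in Lcn2 3+ cells and 13994 and 15482 CPM in Lcn2 0 cells, with 2 of 4 called lower, against 6.06% of all genes, Enpp2 at 377 and 235 against 708 and 625 CPM and Folr1 at 30.0 and 12.4 against 45.2 and 33.9 CPM. Neither was called in the stricter gate, after a second draw or without the library block. The 8 microglia markers summed to 124 and 90.6 CPM in Lcn2 3+ cells and 146 and 119 CPM in Lcn2 0 cells, with none of 4 called, and Csf1r, Aif1 and Tmem119 were at 40.3 and 32.0 against 57.7 and 43.6 CPM, 31.0 and 25.8 against 38.5 and 33.0 CPM and 19.7 and 11.3 against 10.6 and 14.5 CPM. The 7 astrocyte markers summed to 199 and 170.5 CPM in Lcn2 3+ cells and 184 and 376 CPM in Lcn2 0 cells, with Aqp4 at 0 in Lcn2 3+ cells and at 0.967 and 5.84 CPM in Lcn2 0 cells, and only Gja1 called of 2, at 127 and 124 against 51.9 and 67.8 CPM (1.07 ± 0.16, edgeR adjusted p = 2.71e-05). The 5 oligodendrocyte and 6 fibroblast markers summed to at most 7.66 and 5.84 CPM in any sum, too low to be tested.

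**Figure D3:**
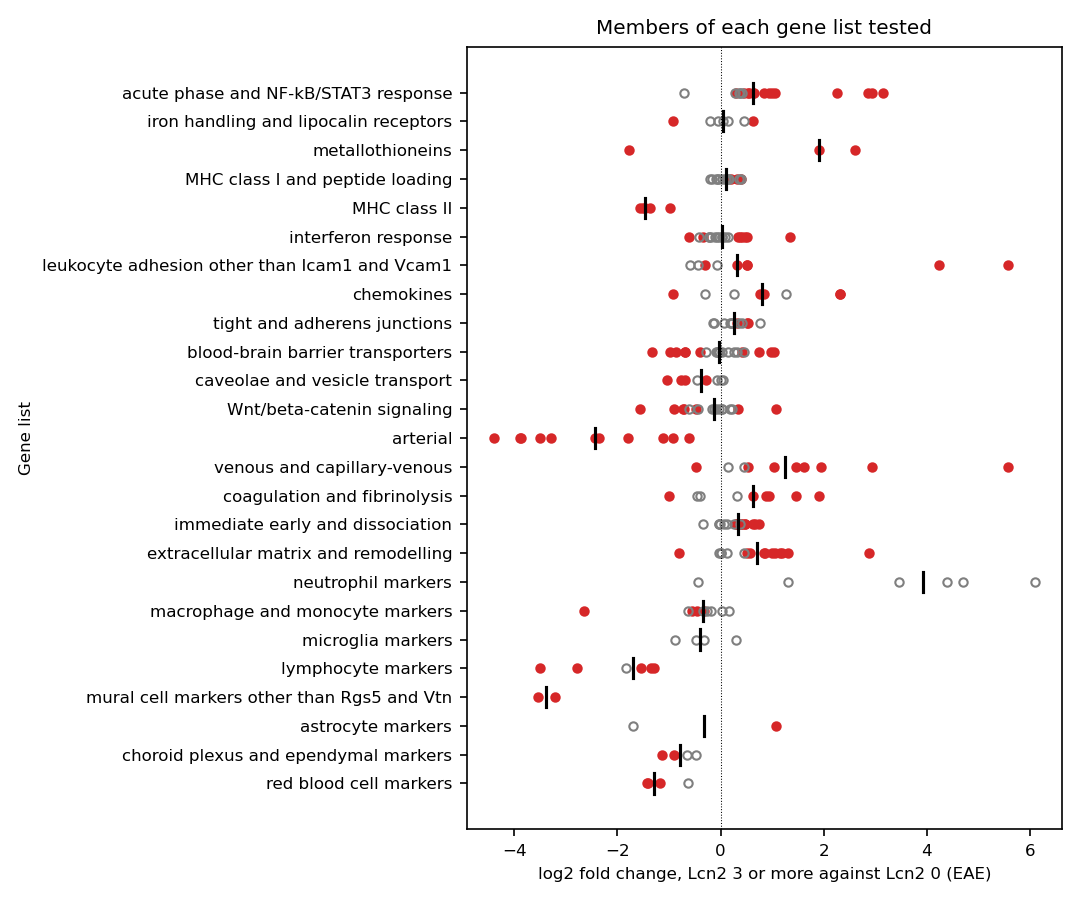
Log2 fold change of Lcn2 3+ over Lcn2 0 cells in EAE (x axis) for each tested member of each gene list (y axis), with filled red points for members called at an adjusted p below 0.05, open grey points for the rest and a black bar for the list's median. The 11 tested arterial genes, 4 of them tested through Lcn2 0 cells alone, lie to the left of 0. Of the acute phase, NF-kB and STAT3 list, 14 of 19 genes are called to the right of it.

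Levels were also followed over finer classes of Lcn2 count, 0, 1 to 2, 3 to 5, 6 to 11 and 12 or more UMIs, which held 1962, 519, 155, 78 and 56 ECs in EAE 1 and 1877, 467, 129, 74 and 69 in EAE 2. Depth rose with the class, from medians of 2031.5 and 2058 to 4078.5 and 4342 UMIs, and was not matched here, and CPM are of plain totals. Lrg1 was at 66.0, 221, 312, 637 and 1864 CPM over these classes in EAE 1 and at 70.8, 158, 276, 568 and 1540.5 CPM in EAE 2. It was higher in each class than in the one before, in both libraries. Serpina3n was at 8.42, 19.4, 35.9, 52.5 and 218 and at 8.93, 17.3, 37.8, 93.4 and 275 CPM. Mt2 went from 506 and 516 CPM at 0 to 3062 and 2804 CPM at 3 to 5 UMIs and stood at 2451 and 2987 CPM at 12 or more. At 6 to 11 UMIs it was at 2215 and 2887 CPM, so within the members it was highest in the lowest class in EAE 1 and in the highest class in EAE 2. Apod reached 2494 and 3469 CPM at 12 or more. Darc was at 6.47, 20.1, 28.4, 17.5 and 571 CPM in EAE 1 and 4.47, 18.7, 33.4, 22.4 and 172 CPM in EAE 2, with its highest level in the highest class of both libraries. Gkn3 was at 142, 93.0, 1.89, 14.0 and 0 and at 129, 59.0, 26.7, 11.2 and 3.24 CPM.

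**Figure D4:**
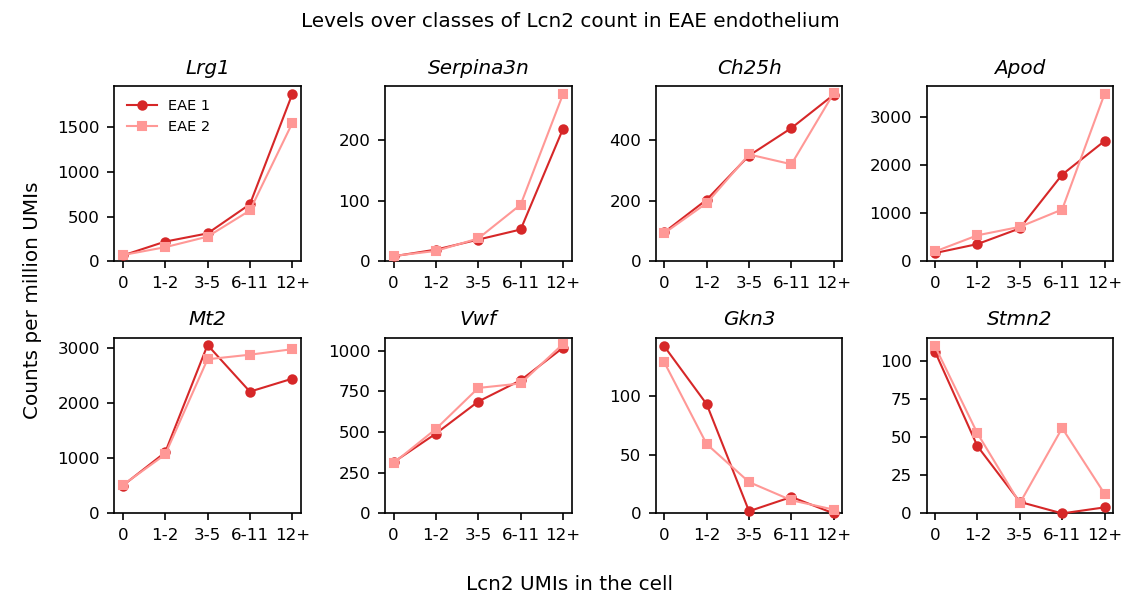
CPM (y axis, from 0 in each panel) of 8 genes over classes of Lcn2 UMIs per cell (x axis) in the ECs of EAE 1 (dark circles) and EAE 2 (light squares). Lrg1 and Serpina3n are highest at 12 or more Lcn2 UMIs, Mt2 is at 2215 to 3062 CPM from 3 UMIs on, and Gkn3 lies at 26.7 CPM or less from 3 UMIs on.

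The Lcn2 0 cells of EAE were compared with those of adult mice to place both classes. With all Lcn2 0 ECs summed per library (2 EAE against 3 adult libraries, edgeR without a block), 17.4% of 12355 genes were higher in EAE (2150 genes) and 17.9% were lower (2217 genes). Depth per cell was not matched here, with medians of 2031.5 and 2058 UMIs in EAE and 3389, 3101.5 and 2911 UMIs in adult cells. With cells thinned to 1500 UMIs, 1471 genes were higher and 1503 lower of 10809 tested. Without EAE 1 the counts were 865 and 864, and without EAE 2 they were 1001 and 973, where the spread came from the adult libraries alone and the lone EAE library was assumed to vary like them. This comparison shares EAE Lcn2 0 cells with the one above and was scaled separately, so values are set side by side. Lrg1, one of the 3 largest rises among called genes with a mean of 50 CPM or more in EAE or adult, was at 1.72 ± 0.367 CPM in adult and 71.8 ± 3.49 CPM in EAE Lcn2 0 cells (SD, n = 3 and 2 libraries), a log2 fold change of 5.31 ± 0.16, edgeR adjusted p = 1.7e-06, below the 826 and 775 CPM of Lcn2 3+ cells. Ch25h was at 5.61 ± 3.23 CPM in adult and 99.5 ± 2.37 CPM in EAE Lcn2 0 cells (3.91 ± 0.23, edgeR adjusted p = 2.95e-05). Vwf was at 80.8 ± 3.34 CPM in adult and 328 ± 3.97 CPM in EAE Lcn2 0 cells (2.01 ± 0.08, edgeR adjusted p = 3.77e-06). Cebpd was at 147 ± 25.4 CPM in adult and 540.5 ± 42.9 CPM in EAE Lcn2 0 cells (1.87 ± 0.14, edgeR adjusted p = 6.26e-05). These 4 genes were thus higher in EAE also among ECs with no Lcn2 UMI, a class that can hold cells whose Lcn2 was missed at this depth, and higher still in Lcn2 3+ cells.

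Apod was called in both comparisons, with the smaller value against adult. It was at 139.8 ± 18.6 CPM in adult and 199 ± 24.1 CPM in EAE Lcn2 0 cells (0.51 ± 0.13, edgeR adjusted p = 0.0167). In Lcn2 3+ cells its mean was 1623 ± 158 CPM. Several genes that rose in Lcn2 3+ cells did not pass the test against adult, and Cxcl1, Cyr61 and Slc1a1 are examples. Cxcl1 was at 27.0 ± 14.4 CPM in adult and 33.6 ± 5.51 CPM in EAE Lcn2 0 cells (0.17 ± 0.40, edgeR adjusted p = 0.783). Cyr61 was at 586 ± 182 CPM in adult and 642 ± 25.1 CPM in EAE Lcn2 0 cells (0.13 ± 0.27, edgeR adjusted p = 0.752). Slc1a1 was at 233 ± 40.9 CPM in adult and 236 ± 1.59 CPM in EAE Lcn2 0 cells (0.03 ± 0.13, edgeR adjusted p = 0.901). H2-K1 was higher in both comparisons, by less between the Lcn2 classes. It was at 478 ± 6.86 CPM in adult and 1815 ± 31.4 CPM in EAE Lcn2 0 cells (1.92 ± 0.09, edgeR adjusted p = 7.99e-06). Of MHC class I, 15 of 15 tested genes were higher in EAE at Lcn2 0, and of the interferon response 18 of 19, where 17.4% of all genes were. In Lcn2 3+ cells 3 of 15 and 6 of 19 were higher, where 8.04% of all genes were. All 5 tested class II genes were higher in EAE at Lcn2 0, Cd74 with an edgeR adjusted p of 0.0492. In that comparison 6 of 9 lymphocyte and 8 of 9 neutrophil markers were also higher, where 17.4% of all genes were. Of 12 macrophage and monocyte markers 2 were higher, and 1 of these and 1 lymphocyte marker were lower. The part of leukocyte RNA in this rise was not tested. All 5 class II genes were lower in Lcn2 3+ than in Lcn2 0 cells. None of these falls was called without the library block, and that of Cd74 was -0.25 in the stricter gate. Sparc and Slc38a5 were lower in EAE than in adult at Lcn2 0 and higher in Lcn2 3+ than in Lcn2 0 cells. Sparc was at 2246 ± 407 CPM in adult and 929 ± 27.5 CPM in EAE Lcn2 0 cells (-1.27 ± 0.16, edgeR adjusted p = 0.000717). Slc38a5 was at 247 ± 15.6 CPM in adult and 111 ± 6.82 CPM in EAE Lcn2 0 cells (-1.16 ± 0.09, edgeR adjusted p = 7.82e-05). The means of Lcn2 3+ cells were 1780.4 ± 186 and 176 ± 24.4 CPM.

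The other 2 of the 3 largest rises in EAE at Lcn2 0 under that limit were Chi3l3 and Zbtb16. Chi3l3, now Chil3, a gene of neutrophils and macrophages, was at 0.188 ± 0.163 CPM in adult and 59.9 ± 22.5 CPM in EAE Lcn2 0 cells (7.79 ± 0.45, edgeR adjusted p = 2.8e-05). The transcription factor gene Zbtb16 was at 4.803 ± 5.63 CPM in adult and 99.6 ± 0.565 CPM in EAE Lcn2 0 cells (5.09 ± 0.53, edgeR adjusted p = 0.00162). The 3 largest falls under it were mt-Nd3, Mog and Cldn11. The mitochondrial gene mt-Nd3 had no UMI in the EAE Lcn2 0 cells and 135 ± 23.2 CPM in adult libraries, and a difference in counting between the libraries was not tested. Mog and Cldn11 are oligodendrocyte genes and were at 59.8 ± 13.4 and 166 ± 36.2 CPM in adult ECs, against 0.113 and 0.457 CPM in EAE.

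Outside EAE no library held 20 Lcn2 3+ ECs, so the contrast was not tested there. Counts were pooled within an age and given as CPM of plain totals. The 14 aged cells, 4 of them with 20 or more UMIs of S100a8 and S100a9, held Lrg1 at 656 CPM (95% Poisson interval 464 to 901) against 3.69 CPM (95% Poisson interval 2.72 to 4.89) in aged Lcn2 0 cells. Mt2 was at 553 CPM (95% Poisson interval 378 to 780.1) against 630.1 CPM (95% Poisson interval 617 to 644), within the interval of the few cells. The 11 juvenile cells had no Lrg1 UMI, with an upper limit of 31.9 CPM, and held Darc at 77.8 CPM (95% Poisson interval 35.6 to 148) against 7.18 CPM (95% Poisson interval 5.98 to 8.55). Both adult cells had 20 or more UMIs of S100a8 and S100a9. These intervals cover counting error only.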

How the data were processed

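Single cells of mouse cortex were profiled in 11 libraries. The authors deposited a table of UMI counts per gene and cell for each library. Per the submitters' processing notes, bcl2fastq 2.19.1.403, UMI-tools 0.5.3, STAR 2.5.3a and featureCounts 1.6.1 were used with mm10. The counts were used as deposited, over 26921 genes. Groups came from the labels. Members and gene lists were chosen with earlier results of these data known.

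UMIs were summed per library and Lcn2 class after matching depth in bins of 0.25 log2 UMIs, leaving Lcn2 out of the total. Sums were tested with edgeR 4.0.16 (filterByExpr, TMM, robust quasi-likelihood, Benjamini-Hochberg) in R 4.3.3, with the library as a block for the 2 classes and without a block for EAE against adult. limma 3.58.1, DESeq2 1.42.0, Python 3.11.15, numpy 2.4.6, pandas 2.3.3, scipy 1.17.1 and scanpy 1.11.5 were also used. Doublets were scored with Scrublet and kept, except in 1 alternative. It marked under 0.5% of cells in the aged libraries and was not relied on there. On simulated data 96.5% of genes changed by a log2 value of 1 were recovered for the Lcn2 classes and 97.5% for EAE against adult. Of the calls there, 0.515% and 4.41% were false. The changed genes were drawn from those with many UMIs, and all genes were given the same spread. These shares therefore do not hold for genes near the filter or with larger spread.

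Named were up to 4 called members per list and direction with the lowest p (or up to 3 of the highest CPM where none was called), the 10 largest changes per direction among called genes at 50 CPM or more, and 3 per direction, with the same limit, for EAE against adult. A gene that this rule names is not reported here. Ly6g, Aqp4, Cd79a and Ms4a1, as markers at 0, and Fbln5, Gja4, Vegfc, Mgp and Retnlg were named after their values were seen. Alternatives changed the matching, draw, depth, Lcn2 threshold, gate, scaling, filter, tool, block and cells or libraries left out. Replicate numbers did not pair EAE and adult libraries (correlations of deviations 0.0017 and 0.013).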

Additional observations from a re-analysis of the deposited data

Results flagged for a closer look

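ECs with 2 or more UMIs of Icam1 and Vcam1, genes of leukocyte adhesion, were left out by the rule and carried Lcn2 more often in EAE than the ECs described above. In EAE 1, 55.7% (152 of 273 cells) held 3 or more Lcn2 UMIs, and in EAE 2 62.6% (149 of 238 cells). In the adult libraries the counts were 0 of 38, 6 of 252 and 3 of 280 cells, in the aged libraries 20 of 247 (8.10%) and 14 of 223 (6.28%), and in each juvenile library 0 or 1 cell. These EAE cells had medians of 4180.0 and 5004.5 UMIs, deeper than the 2191.5 and 2219.5 of the ECs kept, and the part of depth in the difference was not tested.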

How the results depend on the processing

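For Lcn2 3+ against Lcn2 0 cells, 1161 genes were called. DESeq2 called 230, and leaving out cells with S100a8 or S100a9 gave 692 over fewer genes and cells. All other alternatives lay within 1.5 times, among them 1048 genes with no replicate block. With 1 library left out no spread is left, so only values were given. For EAE against adult at Lcn2 0, 4367 genes were called, 3373 with the replicate block by number, and 1729 (without EAE 1) to 6120 (without Adult 1) with 1 library left out, where a lone EAE library was assumed to vary like the adult ones. The numbers do not pair these libraries. The share of ECs with 3 or more Lcn2 UMIs was 10.4%, 6.34% after thinning, 10.6% in the stricter gate, 10.3% without doublets and 10.4% without either EAE library, and 5.15% had 6 or more. Log2 fold changes reversed after thinning for Hba-a1 (0.39), Hba-a2 (0.35), Hbb-bs (0.53), Lyz2 (0.18) and Nkg7 (0.11), without matching for Hba-a2 (0.015), Hbb-bs (0.19) and Lyz2 (0.32), and in the stricter gate for Aif1 (0.13), Chi3l3 (-0.55), Ctss (0.012) and Nkg7 (0.041). Aif1 was at 0.33 without S100a8 or S100a9 cells, Lyz2 at 0.053 with Cldn5 and Flt1 each required, and with 1 EAE library left out Chi3l3 ran from -0.97 to 2.54 and Tmem119 from -0.31 to 0.78. The cause was not tested. Over 99 called named genes and 1541 values from both libraries, 1326 kept direction and call, 204 lost the call and 11 reversed. With 1 library left out, 89 values moved beyond the spread. The Lcn2 contrast outside EAE and its alternatives were not run, since no library held 20 such cells. Requiring Cldn5 and Flt1 each, leaving out cells with arterial UMIs, scaling to library totals and summing Adult 2 and Adult 3 were chosen after seeing the data.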
